A study of Mus musculus with 6 samples.

Results

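Transcripts of the plasminogen activator system were measured in soleus muscle of C57Bl/6 mice, a slow muscle of posture, after 1 day of reloading. Reloading follows a period of unloading, so all of these muscles had been unloaded before. Its genes were taken from the platform annotation of the arrays as the probes named Plat, Plau, Plaur or Plg, which gave 4 genes, with 1 probe each, of 203 named genes and 223 probes in all. The data consisted of 6 arrays of 1 group, wild-type mice as titled, numbered as replicates 1 to 6. The labels state that RNA was extracted from cryosections and that each sample gave 3 micrograms of it to the arrays. The labels give neither age nor sex nor say that the samples came from separate animals, so the spread between them may be technical in part. No unloaded muscle or other condition was analysed here, so the values are levels and spreads and not responses to reloading.

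Plasminogen is the inactive precursor of plasmin, a broad serine protease that dissolves fibrin and degrades matrix proteins. It is made mainly by the liver and reaches muscle with the blood. It is cut to plasmin by urokinase, the product of Plau, or by tissue plasminogen activator, the product of Plat. Urokinase is concentrated on cell surfaces by its receptor, the product of Plaur, which is anchored in the membrane by a lipid. In injured muscle the system is known for roles in fibrin removal, the entry of inflammatory cells and the fusion of myogenic cells.

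Of the 4 genes, Plaur alone had a promoter window in the RefSeq table used here (build GRCm38.p6). The 250 bases before its start are shown because Plaur had the widest range of deposited intensities of the 4 genes, and because the arrays also carry subunits of AP-1, a factor that binds one of the motifs below. The bases shown lie on the plus strand at chr7:24462233-24462482, within the annotated Plaur gene, so at least 1 other gene model starts upstream of them. Capitals mark matches to TGANTCA (AP-1) and GGGCGG (Sp1), searched on both strands. Of the Sp1 matches 2 overlap each other, and none overlaps the AP-1 match.

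Plaur: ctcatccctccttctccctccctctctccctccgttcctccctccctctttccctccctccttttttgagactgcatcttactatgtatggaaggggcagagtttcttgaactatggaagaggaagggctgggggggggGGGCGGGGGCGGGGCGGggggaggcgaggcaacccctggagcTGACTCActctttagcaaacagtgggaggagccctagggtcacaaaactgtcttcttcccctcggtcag

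The AP-1 match read TGACTCA and began 69 bases before the start, and 3 matches to GGGCGG began 111, 105 and 100 bases before it. The windows searched were 300 bases long, 250 before the start and 50 after it, so they were longer than the stretch shown. Over 32851 such promoter windows, 7.81% held TGANTCA, 5.20% held its form TGACTCA and 35.7% held GGGCGG. These matches describe letters in the window, and no measurement here bears on binding to it.

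All 4 genes were measured close to background. The deposited values are intensities on a linear scale, and each array holds values below 0, so some background had been taken off. The most negative value on an array, without its sign, was taken as its noise bound, which ran from 0.0011 on replicate 6 to 0.0028 on replicate 5 and stood at 0.0144 on replicate 1. All 24 values of the 4 genes were above 0, but 14 of them exceeded the bound of their array. Plau did so on 5 of 6 arrays, Plaur and Plg on 4 each, and Plat on 1. Of the 4 genes, 0 exceeded the bound on all 6 arrays, whereas 130 of the 223 probes (58.3%) did. A value at or under the bound has no order among others of its kind and leaves it unknown whether the transcript was present.

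The arrays also differed in brightness. Their summed intensities ran from 13.8 on replicate 6 to 165.3 on replicate 1, with replicates 2 to 5 between 35.2 and 41.3. Levels were therefore also expressed as log2 intensity centred on the median of the 175 probes above 0 on all arrays, where a value of 0 is the median probe of that array. Of 9 listed markers of muscle fibres 7 were measured (Myh7, Myh2, Myh1, Myh4, Des, Ttn and Mb), and all 7 exceeded the bound on every array. Of 8 endothelial markers 6 were measured, and 5 of these exceeded it on all arrays. Both measured fibroblast markers of 4 listed (Pdgfra and Pdgfrb) exceeded it on all arrays, as did 1 of 2 measured satellite cell markers of 3 listed. Of 11 myeloid markers Il1b alone was analysed, and it was at or under the bound on all 6 arrays. Hepatocyte markers were not analysed here. In a whole muscle, fewer cells of a type and less RNA per cell cannot be told apart.

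Plau, the gene of the urokinase protease, was the activator measured on most arrays. Its deposited intensity was 0.0126 on replicate 1, 0.0067 on replicate 2, 0.0046 on replicate 3, 0.0044 on replicate 4, 0.0037 on replicate 5 and 0.003 on replicate 6. The value of replicate 1 was the highest in deposited units but was 0.875 of that array's noise bound, while those of replicates 2 and 4 were 3.19 and 3.14 times theirs. After median centring Plau stood at -1.81 ± 0.38 log2 units (SD, n = 6), with replicate 1 set to its bound. Replicate 2 was then the highest, at -1.16, and replicate 5 the lowest measured, at -2.19, a 2.04-fold range. Without replicate 2 the range was 1.38-fold. When higher values were lowered and lower values raised by the bound of their array, the largest fold left was 0.862, of replicate 2 over replicate 4, so no arrays were separated by more than such noise. Folds called noise-allowed below are the largest formed in this way, between the same arrays as the fold before them unless others are named.

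Plat, the gene of tissue plasminogen activator, a protease of fibrin clots that is also made by endothelium, was the dimmest relative to the bound. It measured 0.0105 on replicate 1, 0.0014 on replicate 2, 0.002 on replicate 3, 0.0008 on replicate 4, 0.0012 on replicate 5 and 0.0025 on replicate 6. Replicate 6 alone exceeded its bound, 2.27-fold, and the other arrays lay at 0.429 to 0.769 of theirs. The centred level in replicate 6 was -1.99, and those of the other arrays were at most between -3.54 and -2.17. Replicate 6 was at least 2.94-fold above replicate 4, the array with the lowest bound on this scale, and the noise-allowed fold was 1.05. Without replicate 4 it was at least 1.80-fold above the next lowest. In deposited units the fold over the lowest bound was at least 1.79, and after division by the 28S ribosomal RNA probe at least 1.69.

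Plaur, the gene of the urokinase receptor, had the widest range of the 4 genes in deposited units. Its deposited intensity was 0.0245 on replicate 1, 0.0034 on replicate 2, 0.0063 on replicate 3, 0.0025 on replicate 4, 0.002 on replicate 5 and 0.0002 on replicate 6. Replicates 1 to 4 exceeded their bounds, by 1.62-fold to 2.42-fold, and replicates 5 and 6 lay at 0.714 and 0.182 of theirs. On the centred scale the level was -1.40 in replicate 1, -2.14 in replicate 2, -1.29 in replicate 3 and -2.70 in replicate 4, and at most -2.59 in replicate 5 and -3.17 in replicate 6. Replicate 3 was thus at least 3.68-fold above replicate 6, with a noise-allowed fold of 1.83, and with a bound 2 times as high the range of all arrays was at least 2.38-fold. Under 6 ways of scaling the arrays (median centring, deposited units, 28S, 75th percentile, median of all probes and quantile normalization), replicates 1 and 3 held the 2 highest values in 6 of 6, also with the other arrays taken at their bounds. On the centred scale with noise allowed for, neither replicate 1 nor replicate 3 stayed above replicate 2, so this order is within the noise. With 2 times the bound Plaur exceeded it on 1 array only, replicate 3. In deposited units the range was at least 22.3-fold, with the highest value on the brightest array.

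Plg, the plasminogen gene, had its highest measured values on other arrays than Plaur. It measured 0.0026 on replicate 1, 0.001 on replicate 2, 0.0027 on replicate 3, 0.0037 on replicate 4, 0.0074 on replicate 5 and 0.0052 on replicate 6. Replicates 4, 5 and 6 exceeded their bounds by 2.64-fold, 2.64-fold and 4.73-fold. Replicate 3 was 1.04 times its bound, and replicates 1 and 2 lay at 0.181 and 0.476 of theirs. The centred level was -2.51 in replicate 3, -2.14 in replicate 4, -1.19 in replicate 5 and -0.93 in replicate 6, and at most -2.17 in replicate 1 and -2.84 in replicate 2. Replicate 6 was at least 3.75-fold above replicate 2, with a noise-allowed fold of 2.00. With a bound 2 times as high the fold was 2.31, of replicate 6 over replicate 4, both still measured. Replicates 2 and 3, set to that higher bound, then no longer lay below replicate 4. Under 6 of 6 ways of scaling, replicates 4, 5 and 6 lay above replicates 2 and 3, also with replicate 2 taken at its bound. Replicate 1 could not be placed because of its high bound, and with it included the order held under median centring alone, 1 of 6 ways. On the centred scale with noise allowed for, replicate 6 stayed above replicates 2 and 3, and replicate 5 above replicate 2 only. Replicate 4 stayed above neither, so this order is in part within the noise. In deposited units Plg was higher on replicate 6, the dimmest array by its sum, than on replicates 2 to 4. With noise allowed for in those units, replicate 6 stayed above replicate 2 but not above replicates 3 and 4.

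**Figure D1:**
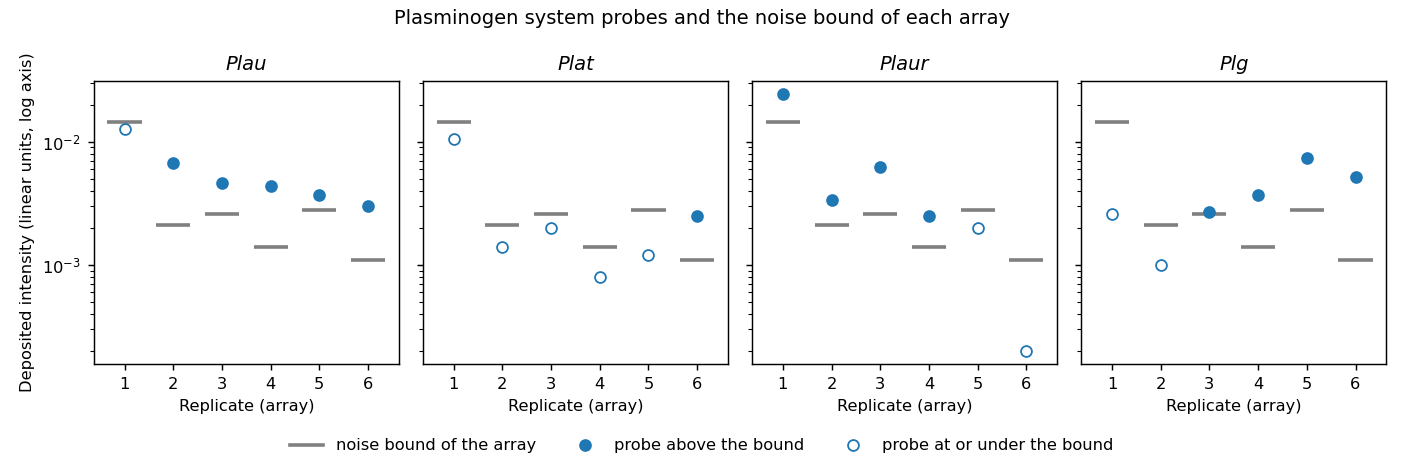
Deposited intensity (linear units on a log axis) of the 4 genes on each of the 6 arrays, with the noise bound of the array as a grey bar. Filled points exceed the bound and open points do not: Plau was above it on 5 arrays, Plat on 1, and Plaur and Plg on 4 each, Plaur on replicates 1 to 4 and Plg on replicates 3 to 6.

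The opposite placing of Plg and Plaur was also read as a ratio within each array, which no scaling factor per array can change. This pair was chosen after its values were seen. The probes of different genes are not calibrated to each other, so the change of a ratio from array to array is read, and not its size. The ratio of Plg to Plaur was at most 0.588 on replicate 1 and at most 0.618 on replicate 2, where Plg was set to the bound. It was 0.429 on replicate 3 and 1.48 on replicate 4, where both genes exceeded the bound. It was at least 2.64 on replicate 5 and at least 4.73 on replicate 6, where Plaur was set to the bound. The ratios of replicates 1 to 3 thus lay below those of replicates 4 to 6. When noise was allowed for, replicate 6 alone, at no less than 3.15, stayed above the upper limits of replicates 1 to 3, which were 1.68, 2.38 and 1.43.

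Between replicates 6 and 3 the ratio of Plg to Plaur differed at least 11.0-fold, with a noise-allowed fold of 2.20. With 2 times the noise bound as the bound the fold was at least 2.86. Without replicate 6 the fold was at least 6.17, and without replicate 3 at least 8.04. For orientation, the 8385 pairs of the 130 probes above the bound on all arrays had a median range of 3.99-fold, and the widest 10% exceeded 16.2-fold. Those probes exceeded the bound on all arrays and Plg and Plaur did not, so these values are a description. The summed level of the muscle fibre markers, in units of the median probe, was highest in replicate 1 (465) and lowest in replicate 6 (178), the arrays at opposite ends for summed intensity. The part of brightness or of fibre content in the ratio was not tested.

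Plat relative to Plau, the 2 activators, changed less clearly. The ratio was 0.833 on replicate 6, where both exceeded the bound. It was at most 0.313 on replicate 2, 0.565 on replicate 3, 0.318 on replicate 4 and 0.757 on replicate 5, and could not be given for replicate 1, where both lay under the bound. Replicate 6 was above the upper limit of each of the other 4 arrays, at least 2.66-fold above replicate 2. The noise-allowed fold, between replicates 6 and 4, was 0.466, so that order is within the noise. The ratio of Plg to Plau was 2.00 on replicate 5 and 1.73 on replicate 6, against 0.841 on replicate 4, 0.587 on replicate 3 and at most 0.313 on replicate 2. The fold between replicates 5 and 2 was at least 6.38, and the noise-allowed fold, between replicates 6 and 2, was 1.48.

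**Figure D2:**
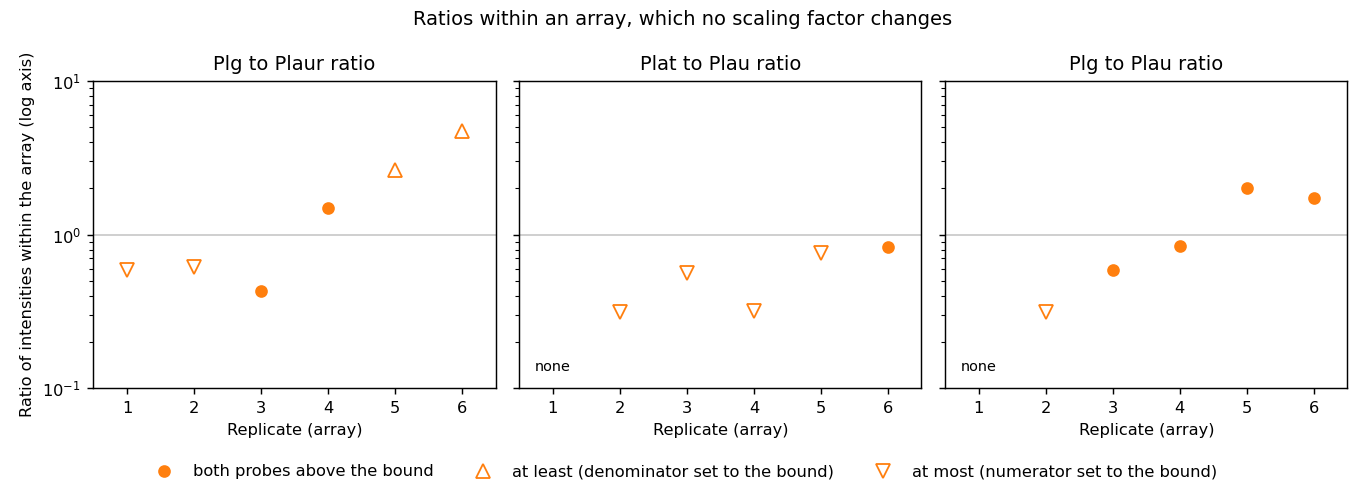
Ratio of 2 probes within an array (log axis) for Plg to Plaur, Plat to Plau and Plg to Plau on the 6 arrays. Filled points have both probes above the bound, triangles pointing up are lower limits and those pointing down upper limits. For Plg to Plaur, replicates 1 to 3 lay below replicates 4 to 6. With noise allowed for, replicate 6 alone stayed above replicates 1 to 3.

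No pair of the 4 genes was correlated over the 6 samples past the threshold. On the centred scale, with values under the bound set to it, 0 of 6 pairs passed an adjusted p of 0.05 by Pearson's r in a two-sided exact permutation test over all 720 pairings. At an unadjusted p under 0.05 there were also 0 of 6, and 0 of 6 by Spearman's rho. Plaur and Plg came nearest, with r = -0.69 (exact permutation p = 0.142, adjusted over the 6 pairs p = 0.767). Their rho was -0.77 (by exact permutation p = 0.103, and 0.617 when adjusted). Leaving out the arrays farthest from Plaur's median, replicates 1 and 3, gave r = -0.83. In deposited units r was 0.47 and after 28S scaling 0.12, so the sign rested on the scaling. Both genes exceeded the bound together on 2 arrays only, replicates 3 and 4. The r without replicates 1 and 3 thus had both genes measured on replicate 4 alone.

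The other pairs had r between -0.51 for Plau and Plg and 0.44 for Plat and Plg (exact permutation p = 0.326 and 0.383, adjusted p = 0.767 for both). Without the 2 farthest arrays these became 0.35 and 0.26, in deposited units 0.42 and 0.80, and after 28S scaling 0.063 and 0.63. Plat and Plau had r = -0.17, Plat and Plaur 0.12, and Plau and Plaur -0.058 (exact permutation p = 0.75, 0.846 and 0.924, adjusted p = 0.924 for all). Without the 2 farthest arrays these became -0.77, 0.54 and -0.44. In deposited units they were 0.79, 0.82 and 0.90, and after 28S scaling 0.48, 0.68 and 0.74, with 0 of 6 pairs past the adjusted threshold on either scale, so these values also rested on the scaling. The rho on the centred scale were 0.029, 0.029 and -0.086, and those of Plau with Plg and Plat with Plg were -0.37 and 0.37. Both genes exceeded the bound together on 1 array for Plat with Plau, 1 for Plat with Plg and 0 for Plat with Plaur. For Plau with Plaur and Plau with Plg they did so on 3 and 4 arrays. Plat was set to the bound on all arrays but replicate 6, so correlations with Plat rest mostly on the bounds and hardly test Plat. The other values also include arrays at the bound, and misses in 6 samples do not show that the genes were unrelated.

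Plau alone exceeded the bound on at least 5 arrays, so its pattern was set beside 123 named genes above the bound on all 6 arrays, as a description over 6 samples that share their scaling. The genes of highest Pearson correlation on the centred scale were Pdgfra, a receptor for platelet-derived growth factor found on fibroblasts (r = 0.70, rho = 0.77), Lpl, lipoprotein lipase (r = 0.65, rho = 0.71), and Ccna1, a cyclin (r = 0.50, rho = 0.37). Pdgfra was highest in replicates 6 and 2, at -0.72 and -0.85, and lowest in replicate 5, at -2.08. For Pdgfra and Lpl, r was also positive in deposited units (0.91 and 0.90), after 28S scaling (0.83 and 0.80) and after quantile normalization (0.76 and 0.65). In deposited units all probes share the brightness of the arrays. Vegfa, the gene of lowest r on the centred scale, had 0.77 there and 0.59 after 28S scaling. Positive values on these 2 scales therefore say little about likeness. The range of Plau itself lay within the noise, which limits all these correlations. For Ccna1 r was 0.15 in deposited units, -0.15 after 28S scaling and 0.29 after quantile normalization, so its likeness did not hold after 28S scaling.

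The lowest correlation with Plau was that of Vegfa, the gene of a growth factor for endothelium, with r = -0.98 and rho = -0.94. Vegfa was lowest in replicate 2, at -1.16, where Plau was highest, and highest in replicate 1, at 0.00. Without replicate 1, where Plau lay under the bound, r was -0.99. After quantile normalization it was -0.75, but in deposited units it was 0.77 and after 28S scaling 0.59. The opposite course of the 2 genes therefore held only relative to the other probes of an array. Vegfa was picked by rule as the lowest of 123 genes over 6 arrays. The range of Plau lay within the noise, so these values are a description.

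**Figure D3:**
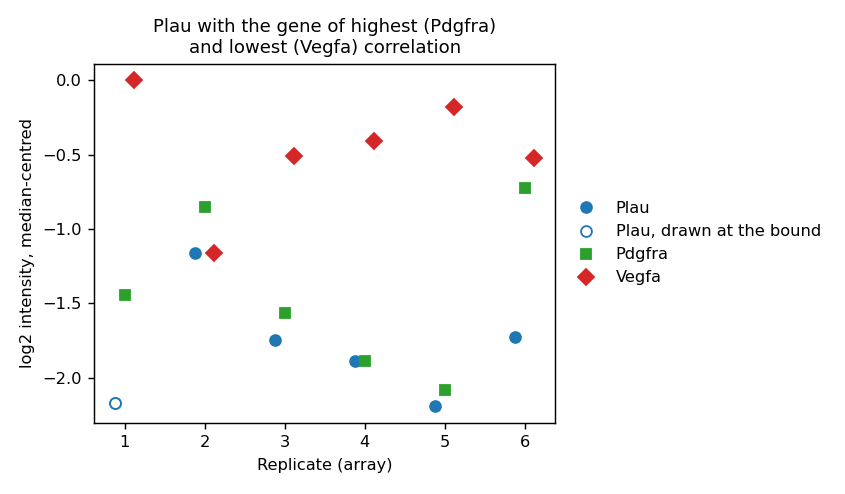
Median-centred log2 intensity of Plau, Pdgfra and Vegfa on the 6 arrays, with points shifted sideways for legibility and the Plau value of replicate 1 drawn at the noise bound. Plau and Pdgfra were both lower on replicate 5 than on replicates 2 and 6, while Vegfa was lowest on replicate 2.

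Genes that inhibit, bind or follow the plasminogen activators were taken from a list of 61, of which 29 were measured. The 7 listed inhibitors of the activators or of plasmin and the 8 listed coagulation genes were not analysed here. Of the 29, 18 (62.1%) exceeded the noise bound on all arrays, 6 on some and 5 on none, close to the 58.3% of all probes. The 18 had a median SD of 0.55 log2 units, against 0.57 over all 130 probes above the bound on all arrays.

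Among 4 surface partners, 3 exceeded the bound throughout. Itgb1, an integrin chain through which cells adhere to matrix, stood at 3.48 ± 0.74 log2 units (SD, n = 6). Igf2r, a receptor that also binds plasminogen and the urokinase receptor, was at 0.50 ± 0.53, and the growth factor receptor Egfr at -0.57 ± 0.51. Itgav, the integrin chain of vitronectin receptors, exceeded the bound on 3 of 6 arrays. Itgb1 and Igf2r were highest on replicate 1 and lowest on replicate 6 after centring. Also lowest on replicate 6 were Mmp10, Timp1, Timp2, Timp3, Igfbp5, Fn1, Lama4, Lamc1 and Thbs1, so this was common in the list. Egfr, Mmp14, Tgfb1, Vegfa, Lama5, Lamb2 and Tnc, also above the bound throughout, had their lowest value on other arrays.

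Of 6 matrix metalloproteinases, whose precursors plasmin can cut, 2 exceeded the bound on all arrays. Mmp14, a membrane-bound enzyme that activates Mmp2, was at -1.02 ± 0.56. Mmp10, a stromelysin, was at -0.69 ± 1.32 and ranged 12.4-fold, with its lowest value on replicate 6. The gelatinase gene Mmp2 measured 0.0111 on replicate 6, against 0.0033 to 0.0082 on replicates 1 to 5, and exceeded the bound on 5 arrays. Replicate 1 lay under its bound for Mmp2, so replicate 6, the dimmest array, held the highest measured value in deposited units, and it was the array on which Plat exceeded its bound. Mmp3, Mmp9 and Mmp12, a stromelysin, a gelatinase and the macrophage elastase, exceeded the bound on 0 arrays, with deposited values from -0.0038 to 0.0012. All 3 measured tissue inhibitors of these enzymes exceeded it throughout, with Timp1 at 0.19 ± 0.44, Timp2 at 1.35 ± 0.54 and Timp3 at 0.89 ± 0.80. These levels are not compared between probes.

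Of 6 genes of growth factors and binding proteins, 3 exceeded the bound on all arrays. Tgfb1, whose latent form plasmin can activate, was at 0.47 ± 0.23, the smallest SD of the 18 genes above the bound on all arrays. Igfbp5, a binding protein for insulin-like growth factors, was at 0.079 ± 0.53, and Vegfa at -0.46 ± 0.40. Hgf, a factor for satellite cells whose precursor urokinase can cut, exceeded the bound on 2 arrays, replicates 5 and 6, with 0.0046 and 0.0019 in deposited units. Fgf2 exceeded it on none.

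Of 10 matrix genes, 7 exceeded the bound on all arrays. Fibronectin, Fn1, a plasmin substrate, was at 2.28 ± 0.59 on its brighter probe, while its dimmer probe exceeded the bound on 3 of 6 arrays. The laminin chain Lama3 ranged at least 24.8-fold, from at or under the bound on replicate 1 to 0.0932 in deposited units on replicate 5, the array on which Plg also had its highest measured value in those units. It measured 0.0233 on replicate 4 and 0.019 on replicate 6, against 0.0039 to 0.007 on replicates 1 to 3, so that the same 3 arrays held the highest measured values as for Plg. Lama3 was picked out after its values were seen. Tnc, the tenascin C gene (0.59 ± 0.69), and the laminin chain Lamb2 (0.33 ± 0.67) were lowest on replicate 1 after centring. Both were highest on replicates 4, 5 and 6 on that scale, as Lama3 was, so this placing was not particular to Lama3. In deposited units both were highest on replicate 1. Lamc1 (2.06 ± 0.88) and Thbs1 (0.45 ± 0.84) were lowest on replicate 6 after centring.

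**Figure D4:**
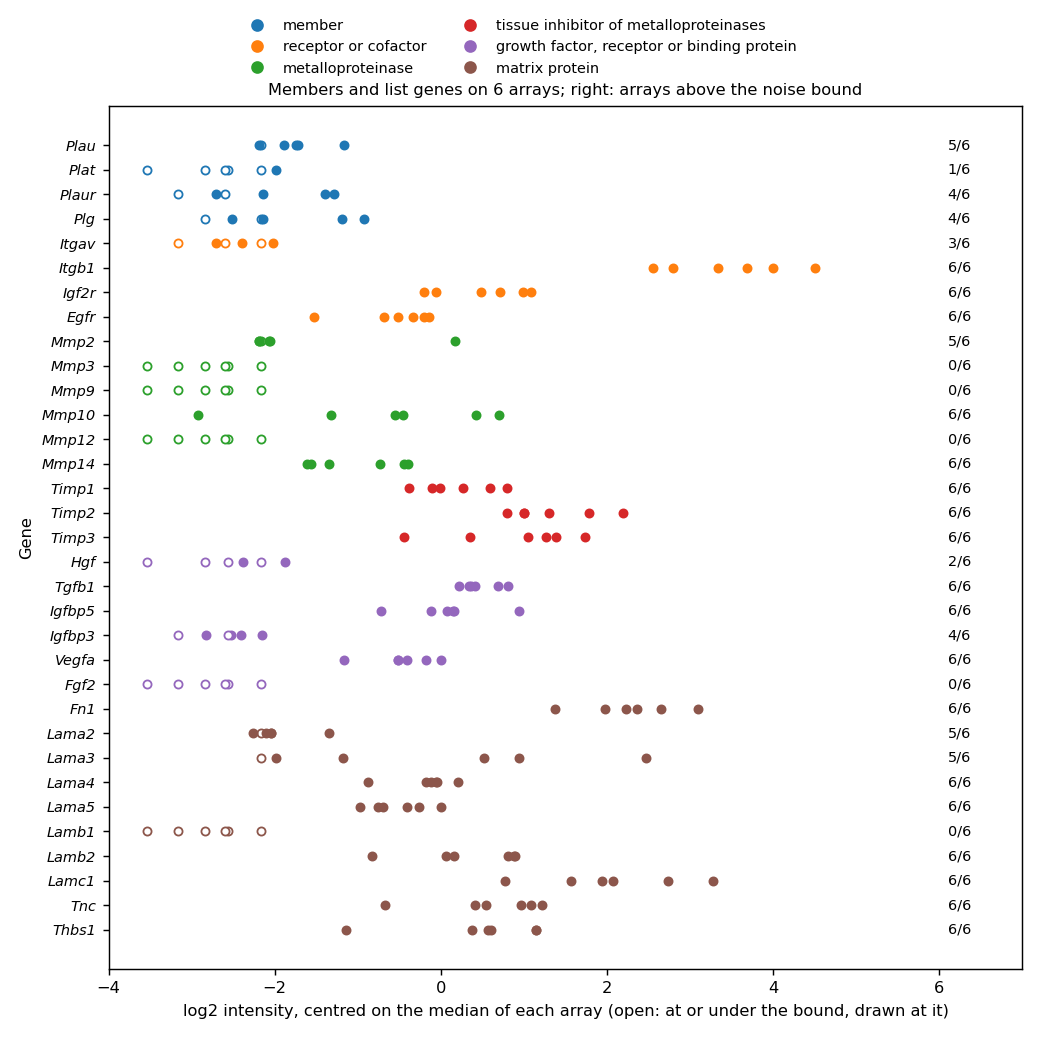
Median-centred log2 intensity of the 4 genes and of 29 genes of receptors, proteases, protease inhibitors, growth factors and matrix on 6 arrays, 1 point per array; open points lie at or under the noise bound and are drawn at it. The numbers at the right count the arrays above the bound, which is 6 for 18 of the 29 list genes and for 0 of the 4 genes of the plasminogen system.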

How the data were processed

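The table the authors deposited held 1 intensity per probe for 223 probes on 6 arrays. The scanner, array type, background method and normalization are not given in the sources used here. Values below 0 show that some background had been subtracted. Of the probes, 205 had 1 gene in the platform annotation, and the gene identifiers of all 4 members matched the GRCm38.p6 gene table. Probes were not placed on a genome. The 28S probe is given in whole hundredths, unlike the others, and may have been measured differently.

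Values at or under the noise bound of their array were set to it, divided by the median of the 175 probes above 0 on all arrays, and converted to log2 with no pseudocount. Folds are the highest array above the bound over the lowest array. Noise was allowed for by subtracting the bound from the higher value and adding it to the lower one. Correlations were tested by exact permutation of samples with Benjamini-Hochberg adjustment over 6 pairs (Python 3.11.15, numpy 2.4.6, pandas 2.3.3). The ranking by correlation was tried on simulated data with no noise bound, in which the planted genes followed the pattern very closely. That trial does not bear on likenesses as weak as those of the named genes. Named were the 4 members, the measured genes of the list, and, for a member above the bound on at least 5 arrays, the 3 genes of highest and the 1 of lowest correlation. The 4 genes and all lists were chosen with earlier results of these data known. Alternatives were other scalings, other noise bounds and leaving out each replicate. Array number limits the precision.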

Additional observations from a re-analysis of the deposited data

Results flagged for a closer look

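Of 26 sets of 6 centred log2 values (the 4 genes, the Plg to Plaur ratio and the list genes above the bound on at least 5 arrays), 4 had an end sample separated from its nearest neighbour by a larger share of the range than Dixon's critical value allows. Chance flags about 1 in 20 sets. None of the 4 was a gene of the plasminogen activator system. Values at or under the bound had been set to it, which can narrow or fix a gap at the low end. The end samples of Plat, Plaur and Plg were arrays set to the bound, so the lack of a flag says little about these genes. Replicate 6 stood apart for Mmp2, on the high side, with a gap of 0.943 of the range. It stood apart on the low side for Thbs1 (0.662) and Lama4 (0.639). Replicate 4 stood apart on the high side for Lama2 (0.757). The cause of these gaps was not tested.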

How the results depend on the processing

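With 1 group, no result is a difference between conditions. Ranges are given in log2 units. For Plat, 1.56 became 2.39 after quantile normalization, 0.84 in deposited units, 0.76 after 28S scaling, 2.36 with no noise bound and 0.56 with 2 times the bound. For Plaur, 1.88 became 4.48 in deposited units, 3.39 after 28S scaling and 4.34 with no noise bound. Plg went from 1.91 to 3.71 with no noise bound. The range of the Plat to Plau ratio went from 1.41 to 2.20 with no noise bound. That of Plg to Plaur went from 3.46 to 7.94 with no noise bound and 1.52 with 2 times the bound. Leaving out 1 replicate at a time gave 0.85 to 1.56 for Plat, 0.47 to 1.03 for Plau, 1.42 to 1.88 for Plaur and 1.58 to 1.91 for Plg. It gave 1.39 to 1.41 for Plat to Plau and 2.62 to 3.46 for Plg to Plaur. Without replicate 6, Plat and the Plat to Plau ratio had no measured high value and gave no range. The causes were not tested, except that dropping the bound takes values under it at face value. The count of correlated pairs stayed 0 of 6 in all 13 settings, with 1 pair at an unadjusted exact permutation p under 0.05 in deposited units. Where 1 replicate was left out, so few pairings remained that no single pair could have passed after adjustment. The count of 0 in those settings is therefore no sign of stability. With the second most negative value as the bound, an alternative chosen after seeing the data, 16 of 24 values exceeded it, and with 2 times the bound 8 did. No paired analysis was possible because there is 1 group. Signal over background limits all 4 genes.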
